A study of Mus musculus with 12 samples.

Results

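The canonical and linker histone genes of the mouse were described across kidney RNA libraries made by selecting polyadenylated RNA. The members were the genes annotated as protein coding whose symbol begins with H1f, H2ac, H2bc, H3c, H4c or Hist followed by a digit. The deposited table of counts held 73 such genes among 57490 genes, and a further 3 genes with matching names had another biotype. By class they were 11 genes of the linker histone H1, 18 of H2A, 19 of H2B, 12 of H3 and 13 of H4. On the coordinates of the deposited table, which the submitters' processing notes place on GRCm39, 54 members lay on chromosome 13, 10 on chromosome 3, 4 on chromosome 11, 3 on chromosome 6 and 2 on chromosome 15. The 54 members of chromosome 13 lay between chr13:21899933-24118834.

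Kidney RNA from 12 male mice aged 13 weeks was sequenced, with 4 independent mice in each of 3 groups on the BKS background. Ctrl mice were nondiabetic db/m animals, heterozygous for the db mutation of the leptin receptor gene Lepr, and they received purified water. Model mice were diabetic db/db animals, homozygous for that mutation, chosen by random blood glucose and also given purified water. YHY mice were db/db animals given Yiqi Huoxue Yangyin Decoction at 6.24 g/mL, a herbal decoction, by gavage once daily for 4 weeks. The sample labels name the tissue as kidney, whereas the series design names renal cortex.

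Nucleosomes wrap DNA around a core of H2A, H2B, H3 and H4, and linker histone H1 binds the DNA between them. Most histone genes are switched on in S phase by factors such as NPAT, and their mRNAs end in a short stem-loop that SLBP binds, in place of a poly(A) tail. Oligo(dT) beads therefore capture such mRNA poorly, while the linker variants encoded by H1f0 and H1f10 are made outside S phase, in differentiated cells, from ordinary polyadenylated mRNA.

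The deposited counts summed to between 29632718 and 33276634 per mouse in Ctrl, between 24415658 and 29784346 in Model and between 25149764 and 29698342 in YHY. Members together took 0.0461% to 0.0599% of the counts of a Ctrl mouse, 0.0294% to 0.0437% of a Model mouse and 0.0171% to 0.0490% of a YHY mouse. The lowest of these shares, in YHY 4, had a 95% Wilson interval of 0.0166% to 0.0175%, which covers counting error only. Mitochondrial genes took 18.4% to 22.7% of counts in Ctrl, 41.2% to 58.9% in Model and 53.8% to 64.6% in YHY, which left fewer counts for the nuclear genes of db/db mice. Its part in the histone values was not tested.

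The 3′ ends of the members were read from GENCODE M21, an annotation of GRCm38 that held all 73. For each member 1 transcript was searched, the longest of its protein-coding ones. A match to the consensus stem-loop of histone mRNA was found in 45 members, beside 522 of 58717 other transcripts searched (0.889%). The matches took 8 distinct forms, the most common of which was found in 25 members. The sites are shown for H1f2, the linker gene with the highest level among those with a match, and for the 6 members with a match that were called in Model against Ctrl, since the stem-loop is the feature that sets these mRNAs apart from polyadenylated ones. Capitals mark the stem-loop, with 5 bases on either side, 5′ to 3′ on the strand of the gene. On GRCm38 the sites lay at chr13:23739507-23739532 on the plus strand for H1f2, chr11:58955167-58955192 on the plus strand for H2ac25 and chr13:23542923-23542948 on the minus strand for H2bc9. They lay at chr3:96238480-96238505 on the minus strand for H3c15 and chr13:23698084-23698109 on the minus strand for H4c3. The sites of H4c8 and H4c9 lay at chr13:23531453-23531478 on the plus strand and chr13:22040961-22040986 on the minus strand.
H1f2: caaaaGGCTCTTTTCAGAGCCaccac
H2ac25: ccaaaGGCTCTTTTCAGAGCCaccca
H2bc9: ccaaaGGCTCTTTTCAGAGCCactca
H3c15: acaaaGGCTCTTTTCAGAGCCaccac
H4c3: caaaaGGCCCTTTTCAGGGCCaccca
H4c8: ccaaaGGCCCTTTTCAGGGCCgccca
H4c9: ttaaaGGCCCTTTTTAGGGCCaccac

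A gene was tested when it passed edgeR's filter on low counts, and 18 of the 73 members did, beside 17431 of all 57490 genes. Of the 18, H1 had 5 members, H2B and H4 had 5 each, H2A had 2 and H3 had 1. The other 55 members together held 0.533% of all counts on members. The highest count of any of them in 1 mouse was 22, in H4c14, and 29 members had 3 or fewer counts in each of the 12 mice, which is taken here as the limit of detection. Among those 29 were 15 H2A genes, 6 H2B genes, 4 H1 genes, 3 H3 genes and 1 H4 gene, and 14 members had no count in any mouse. At or under 3 counts in every mouse of a group were 34 members in Ctrl mice, 44 in Model mice and 38 in YHY mice.

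The tested members were mostly those whose annotated transcript runs on past the stem-loop. Of the 18, 14 had a match, and their annotated 3′ ends lay a median of 996.5 bases past it, from 46 bases in H4c8 to 4884 bases in H1f3. In the 31 untested members with a match the median was 42 bases, from 3 to 1257, and 21 of them ended within 100 bases of the stem-loop. H1f0, H2bc4, H2bc21 and H1f10 were tested without a match. The 12 members whose searched transcript held no match at its 3′ end carried 77.5% of all counts on members. For some of them the annotated end was short, with 37 bases after the stop codon in H3c13 and 48 in H1f1. H2bc22, H2bc23 and H2bc24 have other transcripts that were not searched. The 23 members that run on past the stem-loop carried 21.2%, the 22 that end near it 1.24%, and the 16 whose transcripts have no annotated 3′ end 0.0385%. A poly(A) signal lay in the last 40 bases of 11 of the 18 tested and of 10 of the 55 untested members. Untested members also shared more sequence: of the 28 members that shared most of their 100-base stretches with another gene, H3c15 alone was tested. The part of shared sequence in the low counts was not tested. The filter and the transcript length both depend on what was sequenced and annotated, so these counts describe the members and were not tested.

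**Figure D1:**
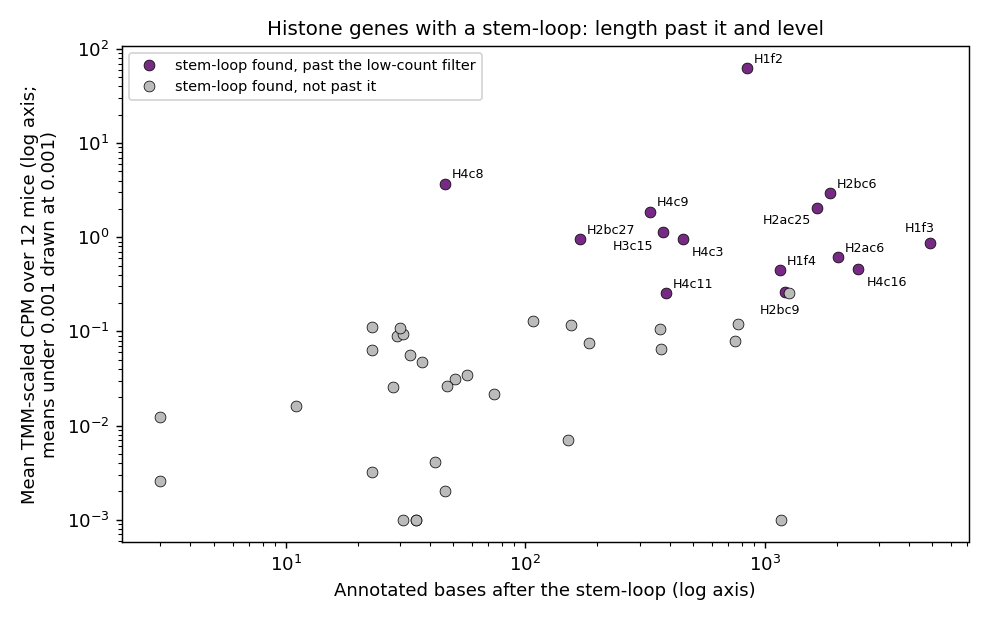
Each point is 1 member with a stem-loop, placed by the annotated bases after the stem-loop (horizontal, log axis) and by its mean TMM-scaled CPM over 12 mice (vertical, log axis), with tested members in purple and named. Of the 14 tested members, H4c8 alone ended within 100 bases of the stem-loop (46 bases), while 21 of the 31 untested members did.

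A handful of genes held nearly all histone counts. H1f0, H2bc4 and H1f2 together carried 92.6% of the 134904 counts on members. By class, H1 carried 67.1%, H2B 29.4%, H4 2.26%, H2A 0.766% and H3 0.482%. Per kb of deposited gene length, the mean level over 12 mice was 95.3 CPM per kb for H1f0, 76.2 for H2bc4, 39.7 for H1f2 and 7.91 for H4c8, where CPM stands for counts scaled by library size and TMM factor to a common total. H4c9 followed at 2.57 CPM per kb, H2bc21 at 2.13, H1f10 at 2.02, H2bc27 at 1.56, H4c3 at 1.16 and H3c15 at 1.11. This order pools groups that differ: in Ctrl alone H2bc4 stood at 140 CPM per kb and H1f0 at 69.2, and in Model at 48.8 and 125, while H3c15 stood at 2.93 in Ctrl, above H2bc21 (2.42) and H1f10 (0.782). The highest mean level per length among untested members was 0.240 CPM per kb, in H4c1.

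Model mice were compared with Ctrl mice to find what changes with diabetes. Of the 13 tested core members, 8 were called lower in Model kidneys (61.5%), 0 were called higher and 5 were not called. Beside them, 18.5% of all tested genes were called lower and 19.6% higher. The share of 61.5% holds only for members that passed the filter, which can keep a gene through its counts in Ctrl alone. With no filter, 9 of 59 members were called lower, beside 3288 of 30103 genes. The replication-independent linker genes H1f0 and H1f10 were higher. H3c15 had the lowest fold change of the called members, falling from a mean of 2.99 ± 0.213 CPM in Ctrl to 0.174 ± 0.154 in Model (SD, n = 4 each), and H2bc4, the core member with the highest level per length, fell from 162 ± 12.8 to 56.4 ± 19.8 CPM. H1f0 rose from 142 ± 21.6 to 256 ± 7.72 CPM and H1f10 from 0.951 ± 0.374 to 3.21 ± 0.56 CPM. RNA came from whole tissue, so fewer cells that carry an mRNA and less of it in each cell cannot be told apart.

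With the edgeR quasi-likelihood test, adjusted by Benjamini-Hochberg over all 17431 genes and called under 0.05, 8 of the 18 tested members were lower in Model and 2 were higher. That is 44.4% and 11.1% of the tested members, beside 18.5% of all tested genes called lower (3219 genes) and 19.6% called higher (3412 genes). The 8 were 3 H2B genes (H2bc4, H2bc21, H2bc9), 3 H4 genes (H4c8, H4c9, H4c3), the H3 gene H3c15 and the H2A gene H2ac25, and the 2 were the H1 genes H1f0 and H1f10. The filter can keep a member through its counts in Ctrl alone. H3c15 had 95 to 137 counts in Ctrl, 1 to 9 in Model and 0 to 12 in YHY, and H2bc9 had 11 to 22, 0 to 3 and 3 to 14. With no filter, 9 of 59 members were called lower and 2 higher, beside 3288 and 3212 of 30103 genes. The share of 44.4% therefore holds only for members that passed the filter. By an unadjusted p under 0.05 with a fold over 1.2, 9 members were lower and 2 higher, beside 22.4% and 24.5% of all genes. The median log2 fold change was −0.998 over the 18 members and 0.04 over all genes, and it was below 0 in 15 of the 18. The number called lower was 4 without Model 2 or without Model 4, beside 2596 of 18052 and 2607 of 18017 genes. It was 5 without any one of Ctrl 1, Ctrl 2, Ctrl 3 or Model 3. All genes called lower there were 2909 of 17749, 2984 of 17827, 2919 of 17790 and 2684 of 18070.

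H1f0 (ENSMUSG00000096210, chr15:78912650-78914704, plus strand, GRCm39) encodes the linker histone H1.0 of differentiated cells. Its levels were 131, 144, 172 and 122 CPM in Ctrl 1 to 4, 265, 248, 260 and 251 CPM in Model and 291, 176, 170 and 120 CPM in YHY. All 4 Model mice lay above all 4 Ctrl mice, with little spread among them, while YHY mice ranged from below Ctrl to above Model. H1f0 rose in Model with a log2 fold change of 0.85 (SE 0.22, adjusted p = 0.00588). With library totals in place of TMM as the scale, the log2 fold change was 0.42 (adjusted p = 0.215, the highest in a range from 3.43e-04 over the alternatives), and on that scale the all-gene median was −0.39 instead of 0.04.

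H1f10 (ENSMUSG00000044927, chr6:87957403-87958619, minus strand, GRCm39) encodes H1.10, the other replication-independent somatic linker histone. It stood at 0.889, 1.47, 0.882 and 0.569 CPM in Ctrl, 3.51, 3.72, 3.20 and 2.44 CPM in Model and 5.08, 2.54, 3.61 and 1.63 CPM in YHY. Every db/db mouse, treated or not, was above every Ctrl mouse. H1f10 rose in Model by a log2 fold change of 1.76 (SE 0.39, adjusted p = 0.00208), and it was called under each alternative setting that tested it.

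H1f2 (ENSMUSG00000036181, chr13:23922791-23924350, plus strand, GRCm39) encodes H1.2, a linker histone of the replication-dependent kind whose annotated transcript runs 840 bases past the stem-loop. It measured 81.6, 75.1, 109 and 75.8 CPM in Ctrl, 47.2, 59.2, 63.8 and 59.2 CPM in Model and 81.5, 43.4, 32.0 and 16.1 CPM in YHY. The 4 Model mice were all below the 4 Ctrl mice, but the gene did not pass the test, with a log2 fold change of −0.57 (SE 0.33, adjusted p = 0.179). With library totals as the scale it was −1.02 (adjusted p = 0.0278), and with only the 8 mice of the comparison in the fit −0.59 (adjusted p = 0.00544).

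H1f3 and H1f4, which encode H1.3 and H1.4, were the other tested linker genes, and both had few counts. H1f3 had 18, 26, 91 and 48 counts in Ctrl, 34, 12, 16 and 18 in Model and 26, 12, 16 and 14 in YHY. H1f4 had 16, 12, 41 and 41 counts in Ctrl, 10, 9, 2 and 0 in Model and 32, 10, 0 and 2 in YHY. For H1f4 each Model mouse had fewer counts than each Ctrl mouse, but the scaled levels overlapped, as they did for H1f3. Neither passed the test in Model against Ctrl (adjusted p = 0.448 for H1f3 and 0.227 for H1f4).

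H2bc4 (ENSMUSG00000018102, chr13:23868182-23876891, plus strand, GRCm39) encodes an H2B protein, and its annotated mRNA has 2 exons and no stem-loop match at its 3′ end. Levels were 152, 175, 171 and 150 CPM in Ctrl, 85.4, 45.9, 51.8 and 42.3 CPM in Model and 59.5, 31.8, 51.9 and 39.3 CPM in YHY. All 8 db/db mice were below all 4 Ctrl mice, and Model 1 was the highest of the 8. H2bc4 fell in Model with a log2 fold change of −1.52 (SE 0.23, adjusted p = 0.00012).

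H2bc21 (ENSMUSG00000068854, chr3:96128435-96131054, plus strand, GRCm39), an H2B gene of the chromosome 3 cluster, also lacked a match. Its levels were 5.45, 6.02, 7.91 and 5.96 CPM in Ctrl, 3.73, 3.33, 3.47 and 4.23 CPM in Model and 9.31, 3.10, 8.34 and 6.20 CPM in YHY. Model mice were all below Ctrl mice, and 3 of the 4 YHY mice lay above every Model mouse. H2bc21 fell in Model by a log2 fold change of −0.78 (SE 0.28, adjusted p = 0.0412). That call was lost without any one of Ctrl 2, Ctrl 3, Ctrl 4, Model 1, Model 2, Model 3 or Model 4 (adjusted p = 0.0531 to 0.107), with upper-quartile scaling (0.0798) and with only the 9 mice that match the authors' group means (0.0744).

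H2bc9 (ENSMUSG00000114456), an H2B gene of chromosome 13, was close to the limit of detection. It had 17, 11, 22 and 11 counts in Ctrl, 0, 2, 3 and 2 in Model and 14, 7, 3 and 6 in YHY. Since no Model mouse had more than 3 counts, its level there was at least 3.05-fold lower than in Ctrl, taking 3 counts per Model mouse (adjusted p = 0.0391). The call was lost without any one of Ctrl 2, Model 1, Model 2, Model 3 or Model 4 (adjusted p = 0.0534 to 0.0848), with no filter (0.126), with the 9 mice (0.0938) and with a replicate block (0.0791), and the gene did not pass the filter without Ctrl 1 or without Ctrl 3. H2bc27, an H2B gene of chromosome 11, ranged over 0.264 to 1.00 CPM in Ctrl, 0.0855 to 0.868 CPM in Model and 0.332 to 3.89 CPM in YHY, and it was not called (adjusted p = 0.832).

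H2ac25 (ENSMUSG00000078851, chr11:58845511-58847656, plus strand, GRCm39), an H2A gene outside the large clusters, carried most of the H2A counts. Its levels were 2.93, 2.59, 2.91 and 2.00 CPM in Ctrl, 1.87, 1.10, 1.69 and 0.684 CPM in Model and 2.86, 1.38, 2.42 and 2.09 CPM in YHY. The highest Model mouse was just under the lowest Ctrl mouse, and 3 of the 4 YHY mice lay within the range of Ctrl. H2ac25 fell in Model with a log2 fold change of −0.96 (SE 0.36, adjusted p = 0.0461). The call was lost without any one of Ctrl 1, Ctrl 2, Ctrl 3, Model 2, Model 3, Model 4 or YHY 3 (adjusted p = 0.0517 to 0.127), with upper-quartile scaling (0.0728) and with no filter (0.0829).

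H3c15 (ENSMUSG00000081058, chr3:96145424-96146443, minus strand, GRCm39), the only tested H3 gene, had 137, 95, 118 and 123 counts in Ctrl, 1, 2, 4 and 9 in Model and 6, 6, 12 and 0 in YHY. On the TMM scale that was 3.29, 2.96, 2.89 and 2.80 CPM in Ctrl, 0.0322, 0.0953, 0.183 and 0.385 CPM in Model and 0.229, 0.332, 0.447 and 0 CPM in YHY. Ctrl mice stood far above all 8 db/db mice. H3c15 fell in Model with a log2 fold change of −4.10 (SE 0.72, adjusted p = 0.000414), which was −4.87 without Model 4. Of its 100-base stretches, 61.6% also occur in H3c13, H3c14, Gm20628 or Gm20634, and H3c13 and H3c14 had no count in any mouse, so which of these loci gave the reads cannot be told apart.

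Among the H4 genes, which all encode the same core protein, H4c3 (ENSMUSG00000060678, chr13:23881618-23882437, minus strand, GRCm39) had the lowest fold change of those called. It measured 1.83, 2.56, 1.98 and 1.53 CPM in Ctrl, 0.290, 0.286, 0.411 and 0.342 CPM in Model and 0.916, 0.111, 0.670 and 0.465 CPM in YHY. All db/db mice were below all Ctrl mice, and the Model mice were close to each other. H4c3 fell in Model by a log2 fold change of −2.56 (SE 0.53, adjusted p = 0.00133).

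H4c9 (ENSMUSG00000060639, chr13:22224806-22225532, minus strand, GRCm39) stood at 4.37, 2.81, 3.75 and 2.46 CPM in Ctrl, 1.13, 0.667, 1.51 and 1.58 CPM in Model and 1.03, 0.442, 1.04 and 1.67 CPM in YHY. Again no db/db mouse reached the lowest Ctrl mouse. H4c9 fell in Model with a log2 fold change of −1.45 (SE 0.40, adjusted p = 0.0101).

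H4c8 (ENSMUSG00000060981, chr13:23715220-23715689, plus strand, GRCm39), whose annotated transcript ends 46 bases after the stem-loop, was the most abundant H4 gene. It measured 6.22, 5.18, 3.58 and 4.05 CPM in Ctrl, 2.90, 2.33, 2.79 and 2.14 CPM in Model and 4.04, 2.76, 5.73 and 2.91 CPM in YHY. Ctrl and Model mice did not overlap, and YHY mice ran from the range of Model into that of Ctrl. H4c8 fell in Model with a log2 fold change of −0.90 (SE 0.29, adjusted p = 0.0218), a call lost without any one of Ctrl 1, Model 2 or Model 4 (adjusted p = 0.0562 to 0.0729).

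The 4 tested members outside the naming rule had log2 fold changes from −2.71 (H4c11, adjusted p = 0.148) to 0.31 (H4c16, adjusted p = 0.774). Between them lay H2bc6 at −1.12 (adjusted p = 0.0547, with 0.00684 to 0.148 over the alternatives) and H2ac6 at −1.04 (adjusted p = 0.188). H2bc6 was called lower with DESeq2 (adjusted p = 0.0311), library totals as the scale (0.0208), no filter (0.0264), the 8 mice (0.0174), the 9 mice (0.0135) and the block (0.00684), and without any one of Ctrl 4, Model 1, YHY 1, YHY 2 or YHY 4 (0.0154 to 0.0494). H4c16 had −0.11 with library totals as the scale. H4c11 had counts in Model 3 alone among the Model mice, so without Model 3 its fitted value of −6.21 depends on the prior count and is no bound. These 4 were named after their values were seen, to complete the 18.

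**Figure D2:**
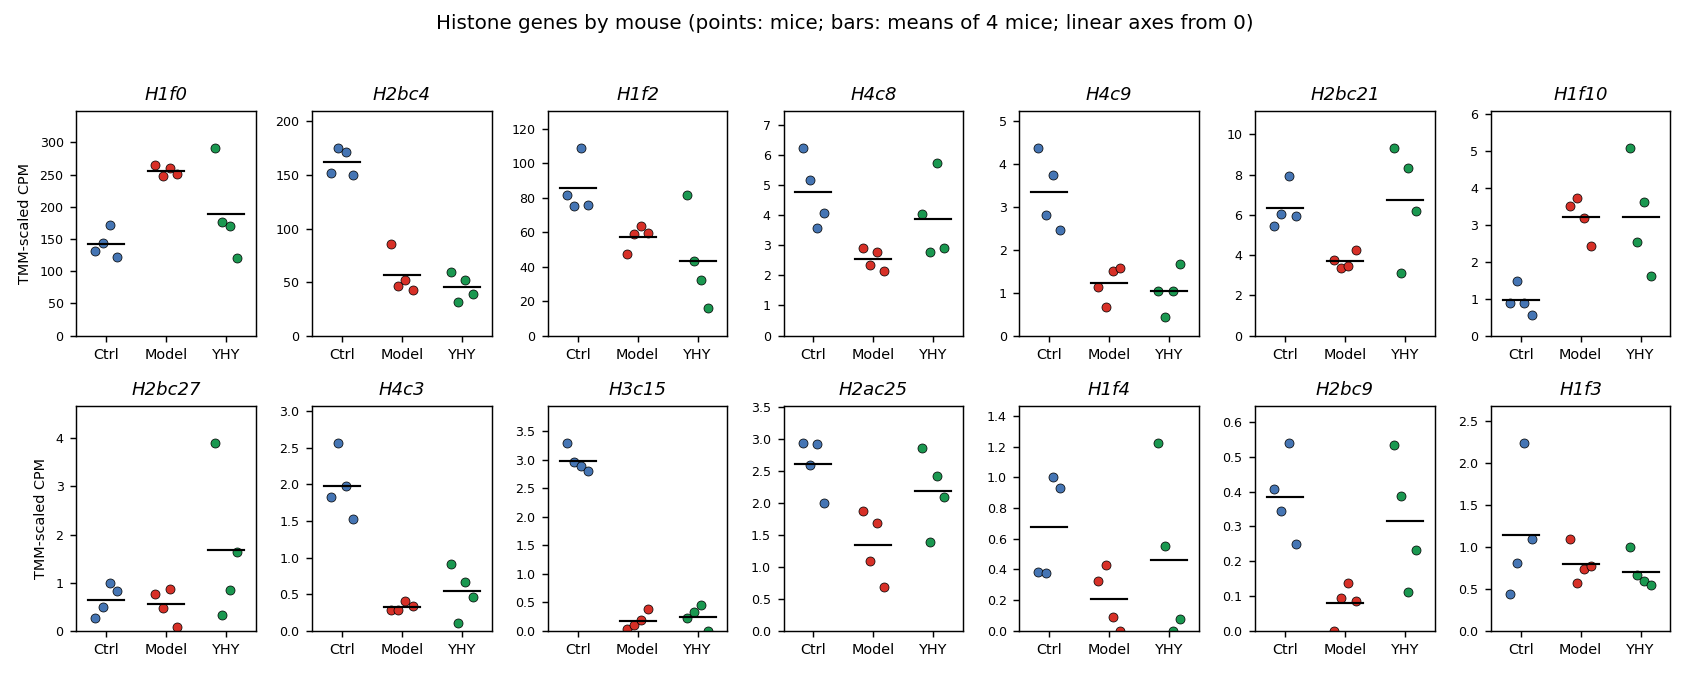
TMM-scaled CPM (vertical, linear axes from 0) of the named members, with 1 point per mouse and bars for the means of 4 mice in each of Ctrl, Model and YHY. H1f0 lies between 248 and 265 CPM in the 4 Model mice and between 122 and 172 CPM in Ctrl, whereas H2bc4 lies between 42.3 and 85.4 CPM in Model and between 150 and 175 CPM in Ctrl.

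Reads on many members can also belong to another gene. At least 1 stretch of 100 bases was shared with another gene in 17 of the 18 tested members, H2bc21 being the exception, and in 47 of the untested ones. H2ac18, H2ac19, H3c13, H3c14 and H2bc18 shared all of their stretches and had no count in any mouse. H2bc23, which also shared all of them, had a mean of 0.0514 CPM. The shared part was 38.5% of H4c8, 29.8% of H2ac25, 25.4% of H2bc4, 15.1% of H4c9 and 14% of H4c3, and it was 5.07% of H1f2 and 3.27% of H1f0. The libraries were strand-specific, but whether strand was used in counting is not stated, so counts are less certain where genes overlap, as do H2bc6 with H1f4, H1f0 with Gm49544, H1f10 with Gm5577 and H2ac25 with Trim17.

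Summed by class, which was described and not tested, the core classes were lower in Model and H1 was higher. In Ctrl most of the H2A, H2B and H3 totals came from H2ac25, H2bc4 and H3c15, each called lower above, so these totals largely restate those calls. H2B totals were 165, 186, 186 and 161 CPM in Ctrl against 93.4, 51.2, 58.9 and 48.6 CPM in Model, a log2 ratio of means of −1.47. Without H2bc4 the ratio of the H2B genes was −0.91. H4 totals averaged 11.5 ± 2.11 CPM in Ctrl and 5.18 ± 0.887 in Model (log2 ratio −1.15), and H2A totals 3.57 ± 0.324 and 1.88 ± 0.624 CPM (−0.93). H3 totals were 3.33 ± 0.27 CPM in Ctrl and 0.513 ± 0.284 in Model (−2.70). In each core class no Model mouse reached the lowest Ctrl mouse. H1 totals were 214, 222, 284 and 201 CPM in Ctrl and 317, 312, 327 and 314 CPM in Model, all above Ctrl, with a log2 ratio of 0.46, but without H1f0 the ratio of the H1 genes was −0.52. With library totals as the scale the ratios were 0.03 for H1, −1.36 for H2A, −1.87 for H2B, −3.07 for H3 and −1.58 for H4.

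Because all members share 1 library, their shares of the counts on members do not depend on the scale. H1 genes took 53.4%, 52.0%, 58.3% and 53.2% of these counts in Ctrl, 75.8%, 84.5%, 82.8% and 84.9% in Model and 80.2%, 83.3%, 72.8% and 70.3% in YHY, each with a 95% Wilson interval at most 2.51 points wide. Every db/db mouse was above every Ctrl mouse. H2B genes took 41.4 ± 2.41% of these counts in Ctrl mice, 16 ± 4.22% in Model mice and 19.7 ± 5.01% in YHY mice (SD, n = 4). For each count on H1f0 there were 1.16, 1.22, 0.998 and 1.23 counts on H2bc4 in Ctrl, 0.322, 0.185, 0.200 and 0.169 in Model and 0.205, 0.181, 0.305 and 0.328 in YHY. This ratio was chosen after the values were seen and carries no test.

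**Figure D3:**
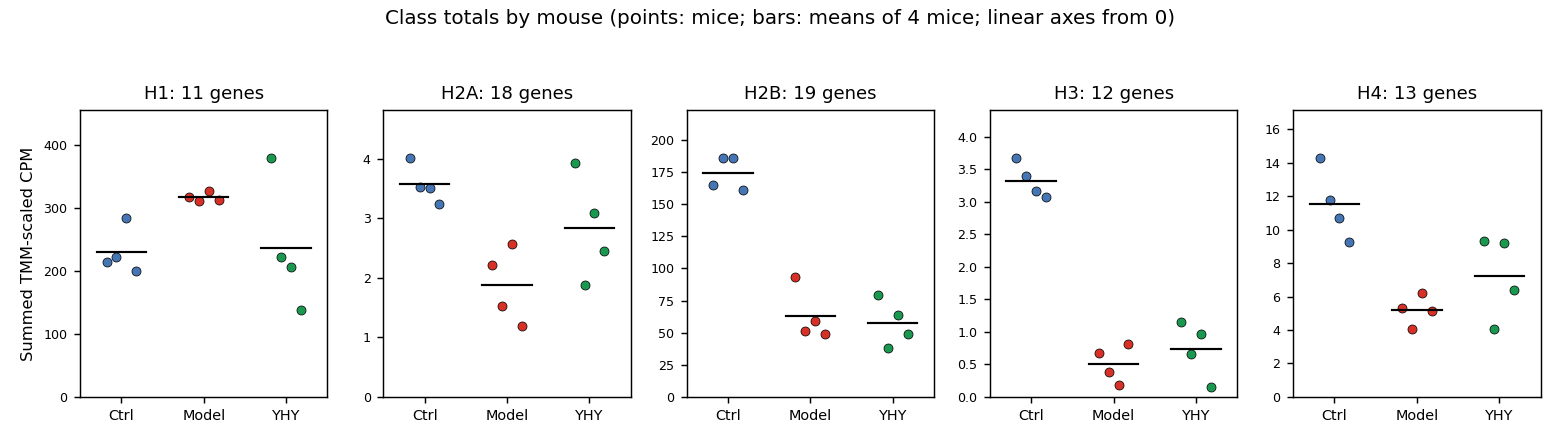
Summed TMM-scaled CPM of each histone class (vertical, linear axes from 0) in Ctrl, Model and YHY, with 1 point per mouse and bars for the means of 4 mice. The 4 Model mice lie below the 4 Ctrl mice for H2A, H2B, H3 and H4 and above them for H1, whose mean is 318 CPM in Model and 230 CPM in Ctrl.

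Promoters were taken from RefSeq on GRCm38.p6, from 250 bases before to 50 after the start of each gene, and 62 of the 73 members had one. H2bc4, H2bc21, H2ac25, H2bc27, H4c16, H4c14, H3c7, H2bc26-ps, H3c1, H2bc24 and H1f9 had none in the table. On either strand, CCAAT was found in 51 of the 62 (82.3%), beside 37.4% of all 32851 promoters. TATAAA was found in 34 (54.8%), beside 13.6%, and the octamer ATTTGCAT in 13 (21%), beside 1.74%, and none of the 3 strings contains another. Of the 13 tested members with a promoter, 8 held CCAAT, 5 TATAAA and 2 the octamer. Among those called lower in Model, CCAAT was in H3c15, H4c3 and H2bc9 and TATAAA in H4c9. The promoters of H4c8, called lower, and of H1f0 and H1f10, called higher, held none of the 3 motifs. The promoters of H1f0, H3c15 and H4c3 are shown as those of 1 of the 2 linker genes that rose and of 2 core genes that fell, with any of the 3 motifs, read on either strand, in capitals. They lie on GRCm38 at chr15:79027962-79028261 on the plus strand, chr3:96239078-96239377 on the minus strand and chr13:23698409-23698708 on the minus strand. A match describes the letters and is not evidence of binding.
H1f0: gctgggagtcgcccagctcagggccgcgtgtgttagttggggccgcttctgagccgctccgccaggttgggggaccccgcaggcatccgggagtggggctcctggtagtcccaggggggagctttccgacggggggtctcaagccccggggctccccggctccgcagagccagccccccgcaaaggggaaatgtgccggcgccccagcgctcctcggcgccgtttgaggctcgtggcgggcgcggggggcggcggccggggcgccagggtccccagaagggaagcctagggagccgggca
H3c15: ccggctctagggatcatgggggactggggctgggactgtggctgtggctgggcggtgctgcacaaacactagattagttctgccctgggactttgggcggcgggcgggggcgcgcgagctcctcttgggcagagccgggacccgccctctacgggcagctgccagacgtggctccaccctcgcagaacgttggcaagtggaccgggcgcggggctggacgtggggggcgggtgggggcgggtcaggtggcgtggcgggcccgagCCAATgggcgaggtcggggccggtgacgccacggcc
H4c3: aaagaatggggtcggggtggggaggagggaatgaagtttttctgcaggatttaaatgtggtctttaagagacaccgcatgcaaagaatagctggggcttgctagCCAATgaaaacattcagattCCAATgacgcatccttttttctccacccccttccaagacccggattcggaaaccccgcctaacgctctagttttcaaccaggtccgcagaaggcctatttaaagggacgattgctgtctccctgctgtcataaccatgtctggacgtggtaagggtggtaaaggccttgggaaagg

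YHY mice were compared with Model mice to find the effect of treatment in diabetic mice. None of the 18 tested members passed the test. For H1f0 and H2bc21 the YHY mice differed more among themselves than the Model mice did. H1f0 averaged 189 ± 72.4 CPM in YHY and 256 ± 7.72 in Model (SD, n = 4 each), and H2bc4 averaged 45.6 ± 12.4 and 56.4 ± 19.8 CPM. H2bc21 averaged 6.74 ± 2.75 CPM in YHY and 3.69 ± 0.396 in Model. This comparison shares its Model mice with the one against Ctrl, so its values are given beside the others and no overlap is counted.

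By edgeR, 0 of the 18 tested members were called higher and 0 lower in YHY, beside 5.63% of all genes called higher (982 genes) and 7.62% called lower (1329 genes). At an unadjusted p under 0.05, 4 members were higher and 0 lower, beside 13.9% (2430 genes) and 14.7% (2559 genes) of all genes. DESeq2 called 1 member higher and 0 lower, beside 8.23% and 9.67% of all genes. With a fold over 1.2 required as well, the same 4 members were higher, beside 13.9% (2429 genes) and 14.7% of all genes. They were H2bc21, H2bc27, H2bc9 and H4c11, of which H4c11 was named after its values were seen. The log2 fold change was above 0 in 12 of the 18, with a median of 0.57, beside 0.02 over all genes.

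The members called in Model against Ctrl had these values in YHY against Model. H1f0 had a log2 fold change of −0.44 (SE 0.21, adjusted p = 0.194), and H2bc4 had −0.31 (SE 0.22, adjusted p = 0.398). H1f0 was higher in YHY 1 than in any Model mouse and lower in the other 3 YHY mice than in any Model mouse. Without YHY 1, H1f0 passed the test at −0.72 (adjusted p = 0.0194) and H1f2 at −0.91 (adjusted p = 0.0340), while with all mice H1f2 had −0.41 (SE 0.33, adjusted p = 0.447). Without YHY 4, H1f0 had −0.27 and H1f2 −0.13. H2bc4 ran from −0.46 without YHY 1 to −0.022 without Model 1. H1f10 had a log2 fold change of 0.00 (SE 0.37, adjusted p = 0.998), with YHY mice on both sides of the Model mice.

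H2bc21 came closest to the threshold, with a log2 fold change of 0.87 (SE 0.29, adjusted p = 0.0556). YHY 1, YHY 3 and YHY 4 were above every Model mouse and YHY 2 was below them all, and without YHY 2 the gene passed the test at 1.10 (adjusted p = 0.00856). It also passed with DESeq2 (0.88, adjusted p = 0.0239), with at least 10 counts required in every mouse (0.89, adjusted p = 0.0443) and with no filter (0.86, adjusted p = 0.0483). H2bc9, at the limit of detection in Model, was at least 2.51-fold higher in YHY (adjusted p = 0.132). H2bc27 had a log2 fold change of 1.60 (SE 0.73, adjusted p = 0.159), and its highest value, 3.89 CPM, was in YHY 1, without which the log2 fold change was 0.77.

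The remaining core genes named above did not pass the test either. H2ac25 had a log2 fold change of 0.71 (SE 0.36, adjusted p = 0.210) and H4c8 had 0.61 (SE 0.29, adjusted p = 0.182). H4c3 had 0.72 (adjusted p = 0.399), H3c15 0.55 (adjusted p = 0.696) and H4c9 −0.21 (adjusted p = 0.792). H4c11 had 0, 0, 4 and 0 counts in Model and 39, 0, 0 and 4 in YHY, so its log2 fold change of 3.17 (adjusted p = 0.157) rests on YHY 1, without which it was 0.32, and without Model 3, the only Model mouse with counts, no fold can be given. The value of H3c15 ran from 0.068 without YHY 3 to 1.31 without Model 4. That of H4c8 ran from 0.35 without YHY 3 to 0.73 without YHY 2, and that of H4c3 from 0.36 without YHY 1 to 1.04 without YHY 2. For H1f4 and H1f3 the adjusted p was 0.537 and 0.863.

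The spread of the class totals among YHY mice was wide for H1, with an SD of 102 CPM against 6.87 CPM in Model, or 121 against 35.2 CPM with library totals as the scale. H1 totals were 380, 223, 207 and 138 CPM in YHY 1 to 4, with YHY 1 above every Model mouse and YHY 2, YHY 3 and YHY 4 below every one. H2B totals averaged 57.7 ± 17.9 CPM in YHY and 63.0 ± 20.7 in Model, a log2 ratio of −0.13 that was 0.13 without Model 1 and 0.028 without YHY 2, and without H2bc4 the ratio of the H2B genes was 0.87. The ratios were 0.60 for H2A, 0.51 for H3, 0.48 for H4 and −0.42 for H1. Leaving out 1 mouse gave 0.40 (without YHY 1) to 0.78 (without Model 3) for H2A. It gave 0.21 (without YHY 1) to 0.85 (without YHY 4) for H3 and −0.75 (without YHY 1) to −0.23 (without YHY 4) for H1. For all core genes together the ratio was −0.04.

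**Figure D4:**
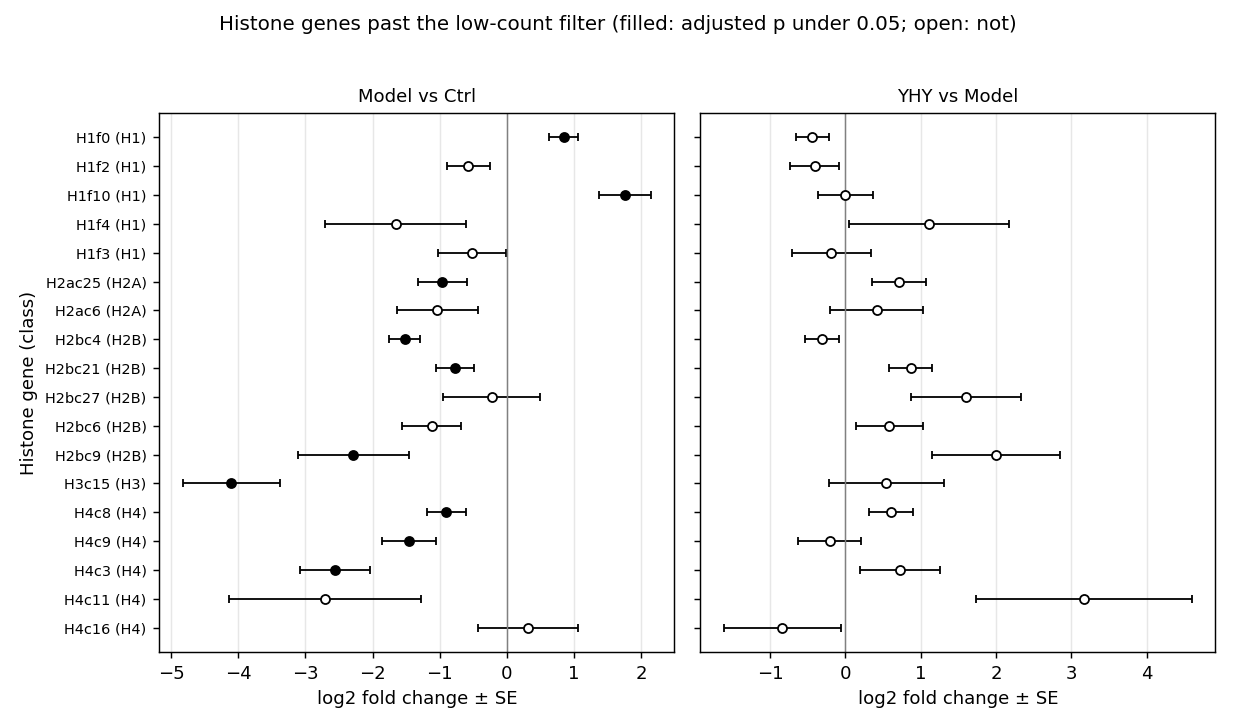
Log2 fold change (horizontal) of the tested members, with Model against Ctrl on the left and YHY against Model on the right, with bars of 1 SE and called members filled. H1f0 and H1f10 were called higher in Model (0.85 and 1.76) and 8 core histone genes lower, from −0.78 in H2bc21 to −4.10 in H3c15, and no member was called in YHY against Model.

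Genes that make, process or bind histones were read from the same test. Of 29 S phase and division genes, 9 rose and 0 fell in Model (median log2 fold change 0.90), and 0 rose and 7 fell in YHY (median −0.60). Of all tested genes, 19.6% were called higher and 18.5% lower in Model, and 5.63% higher and 7.62% lower in YHY. The division genes that fell in YHY numbered 3 without Model 4 and 4 without YHY 3, and with the 9 mice 1 rose and 3 fell. The division genes lower in Model numbered 1 with DESeq2, with no filter and without any one of Ctrl 4, YHY 1 or YHY 4, 2 with the 8 mice, and 3 with the 9 mice and without Model 1. Mki67, a marker of dividing cells, had 3.53, 3.68, 2.55 and 1.82 CPM in Ctrl, 22.1, 24.2, 16.3 and 19.4 CPM in Model and 5.30, 4.87, 2.87 and 3.06 CPM in YHY. It rose in Model (log2 fold change 2.82, adjusted p = 3.93e-06) and was lower in YHY (−2.35, adjusted p = 2.63e-04), with Model mice apart from both other groups. Cdk1, the kinase that drives mitosis, had a log2 fold change of 1.75 in Model (adjusted p = 0.00384) and −2.75 in YHY (adjusted p = 0.00171). Top2a, a topoisomerase of dividing cells, had 2.67 (adjusted p = 1.79e-04) and −1.59 (adjusted p = 0.0184), the latter lost without Model 4 (adjusted p = 0.0541) and with the 9 mice (0.0707). Birc5, an inhibitor of apoptosis made in dividing cells, rose in Model (1.97, adjusted p = 0.00845), and E2f1, a factor for S phase entry, fell in YHY (−1.45, adjusted p = 0.0481), though not without any one of Ctrl 1, Ctrl 2, the 4 Model mice, YHY 1, YHY 3 or YHY 4 (adjusted p = 0.0529 to 0.149), with the 8 mice (0.0951) or with the 9 mice (0.0762), and the value was −2.06 without YHY 2. The 8 core members called lower were so in the same Model mice in which these markers were higher, and a link between them was not tested. With library totals as the scale, 4 of the 29 were higher and 4 lower in Model, beside 8.87% and 32.5% of all genes on that scale.

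Histone mRNA relies on some factors of its own, such as SLBP, but many genes of the list read here also serve other mRNAs. Cstf2, Cstf3, Ncbp2, Tut4 and Lsm1 are among the latter, so their changes are not particular to histone mRNA. Of 27 genes with a part in the transcription, 3′ end formation and decay of histone mRNA, 4 rose and 9 fell in Model (median 0.21), and 3 rose and 1 fell in YHY (median 0.11). Beside them, all genes were called higher in 19.6% and lower in 18.5% of cases in Model, and in 5.63% and 7.62% in YHY. In YHY against Model, 1 rose and 1 fell without any one of the 4 Model mice or YHY 2, and 2 rose and 2 fell without YHY 1. Slbp, which binds the stem-loop, had 13.4, 12.5, 13.9 and 14.4 CPM in Ctrl, 8.88, 6.19, 5.53 and 8.08 CPM in Model and 8.62, 4.70, 14.1 and 8.87 CPM in YHY. All Model mice were below all Ctrl mice, and Slbp fell with a log2 fold change of −0.91 (adjusted p = 0.0112), with 0.34 in YHY (adjusted p = 0.417). Eri1, an exonuclease that trims histone mRNA, fell by 1.54 (adjusted p = 9.07e-05), Cstf2, a cleavage factor, by 1.29 (adjusted p = 4.78e-04) and Ncbp2, a cap-binding subunit, by 1.10 (adjusted p = 7.52e-04). With library totals as the scale, 0 of the 27 were higher and 11 lower in Model, beside 8.87% and 32.5% of all genes on that scale. Upper-quartile scaling gave 7 higher and 8 lower, beside 4025 and 2622 of 17431 genes.

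Npat, the coactivator of histone genes, had 6.84, 6.93, 6.81 and 6.78 CPM in Ctrl, 8.85, 9.19, 9.5 and 7.14 CPM in Model and 14.5, 15.8, 10.4 and 12.2 CPM in YHY. Each YHY mouse was above each Model mouse, and each Model mouse above each Ctrl mouse. It was not called in Model (log2 fold change 0.34, adjusted p = 0.130) and rose in YHY (0.61, adjusted p = 0.0300), a call lost without any one of Model 1, Model 2, Model 3, Model 4, YHY 1 or YHY 2 (adjusted p = 0.0540 to 0.0880), with library totals as the scale (0.0790), with no filter (0.0811) and with only the 8 mice of the comparison (0.0561). Tut4, which adds uridines to mRNA ends, rose in YHY (1.26, adjusted p = 0.0111), and Lsm1, part of a decay ring, fell (−0.80, adjusted p = 0.00469). Cstf3, a cleavage factor, rose in YHY (0.52, adjusted p = 0.0323), a call lost without any one of Ctrl 3, the 4 Model mice, YHY 1 or YHY 2 (adjusted p = 0.0509 to 0.0937), with library totals as the scale (0.116), with no filter (0.101), with the 9 mice (0.0651) and with the block (0.0503).

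Among 8 core variants, most of which are made outside S phase and from polyadenylated mRNA, 7 were tested and H2ap was at the limit of detection. In Model, 1 rose and 2 fell (median −0.25), and in YHY, 0 rose and 2 fell (median −0.38), where the all-gene shares were 19.6% and 18.5% in Model and 5.63% and 7.62% in YHY. Without Model 3, 1 rose and 1 fell in Model, and without YHY 4, 3 fell in YHY. H2az1, an H2A.Z gene, fell in Model by 1.01 (adjusted p = 1.43e-04), and H3f3a, an H3.3 gene, by 0.75 (adjusted p = 0.0165), a call lost without Model 3 (adjusted p = 0.0526). H3f3b, the other H3.3 gene, was not called (−0.25, adjusted p = 0.320). Cenpa, the centromeric H3, rose in Model (1.65, adjusted p = 0.00707). In YHY, H2ax, the variant marked at DNA breaks, fell (−0.79, adjusted p = 0.0161), as did H2az2 (−0.64, adjusted p = 0.0129), and with library totals as the scale both calls were lost (adjusted p = 0.0786 and 0.0877). With library totals as the scale, 1 variant was higher and 5 were lower in Model, beside 8.87% and 32.5% of all genes on that scale.

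Of 24 histone chaperones, 5 rose and 4 fell in Model (median 0.04), and 2 rose and 0 fell in YHY (median −0.08). The counts in Model were close to the all-gene shares of 19.6% higher and 18.5% lower, and the shares in YHY were 5.63% and 7.62%. In the latter comparison, 1 rose without Model 3 or without YHY 2, and 2 rose and 1 fell without YHY 1 or without YHY 4. Without Model 4, 1 rose and 1 fell. DESeq2 called 3 higher and 1 lower in YHY, and library totals as the scale gave 1 higher and 0 lower. Hjurp, which loads Cenpa, rose in Model (1.75, adjusted p = 4.84e-05), as did Ubn2 of the H3.3 chaperone complex (1.92, adjusted p = 5.13e-06) and Chaf1b, which deposits H3 and H4 behind replication forks (1.67, adjusted p = 9.59e-04). Nap1l1, a chaperone of H2A and H2B, fell by 1.32 (adjusted p = 1.43e-05). In YHY, Atrx, which acts with an H3.3 chaperone, rose (0.90, adjusted p = 0.00777, with 0.71 and adjusted p = 0.00833 in Model, where library totals as the scale gave adjusted p = 0.252), and so did Supt6 (0.52, adjusted p = 0.0214), a call lost without any one of Model 3, Model 4 or YHY 2 (adjusted p = 0.0510 to 0.0754) and with library totals as the scale (0.0776). With library totals as the scale, 3 chaperones were higher and 10 lower in Model, beside 8.87% and 32.5% of all genes on that scale. Upper-quartile scaling gave 8 higher and 4 lower, beside 4025 and 2622 of 17431 genes. At least 10 counts in every mouse gave 8 and 4 of the 23 tested, beside 3088 and 2907 of 13623 genes. With the 9 mice, 6 were higher and 7 lower, beside 3284 and 3783 of 17414 genes.

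**Figure D5:**
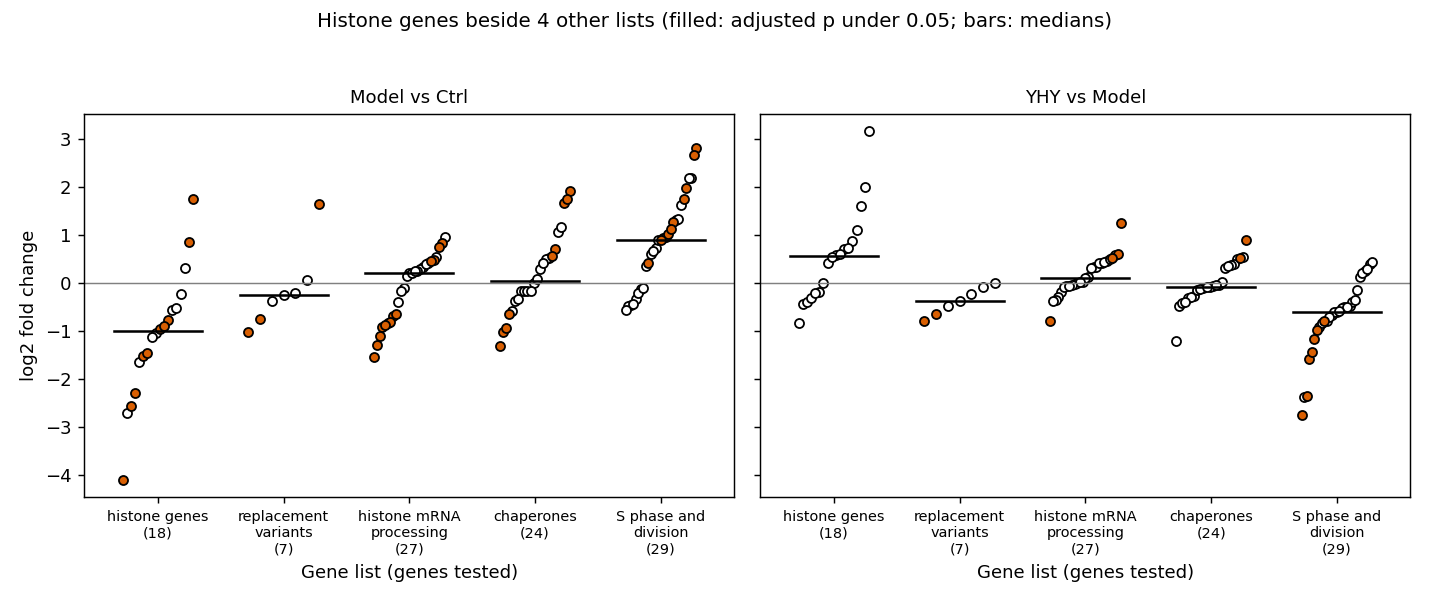
Log2 fold change (vertical) of the tested members and of each tested gene in the lists of core variants, processing factors, chaperones and division genes, in each comparison, with called genes filled and bars for medians. The medians in Model against Ctrl are −0.998 for the members and 0.90 for the division genes.

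Cell type markers gave the setting of these values. Summed levels of 10 proximal tubule markers were 52935, 68034, 55758 and 27496 CPM in Ctrl, 12491, 9422, 12277 and 9353 CPM in Model and 6741, 11231, 5707 and 11227 CPM in YHY, with Kap the most abundant, and 6 of the 10 were called lower in Model. Their median log2 fold change was −0.82, a smaller difference than that of the sums. Of all genes, 19.6% were called higher and 18.5% lower in Model, and 5.63% and 7.62% in YHY. Of 8 markers of other tubule segments (Slc12a1 the most abundant), 1 was higher and 2 lower in Model, and of 6 podocyte markers (Podxl), 3 were higher. Of 6 endothelial markers (Emcn) 1 was higher, of 9 myeloid markers (Lyz2) 1 was higher and 1 lower, and of 9 lymphocyte markers (Jchain), 5 of them tested, 1 was lower. Red cell precursors can carry polyadenylated histone mRNA, and 1 of 7 erythroid markers was higher and 3 lower in Model, with summed levels of 494, 329, 410 and 741 CPM in Ctrl, 509, 467, 328 and 304 CPM in Model and 520, 342, 840 and 1080 CPM in YHY, mostly Hba-a1. In YHY, 2 erythroid and 1 lymphocyte markers were higher and 1 proximal and 1 other tubule markers lower. None of 5 testis markers was tested, with Prm1, Prm2, Tnp1 and Ldhc at the limit of detection and Acrv1 the most abundant. The part of cell composition in the histone values was not tested.

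Carry-over of RNA without a poly(A) tail was compared by the share of counts on genes for snRNA, snoRNA, scaRNA, miscellaneous RNA, ribozymes and rRNA. It was 0.394%, 0.278%, 0.342% and 0.289% in Ctrl, 0.235%, 0.310%, 0.383% and 0.30% in Model and 0.370%, 0.192%, 0.261% and 0.238% in YHY, and the 3 groups overlapped. Nearly all of it fell on Rn18s-rs5. Without that gene the share was 0.00225% to 0.00244% in Ctrl, 0.00365% to 0.00585% in Model and 0.00375% to 0.00571% in YHY, so each db/db mouse was above each Ctrl mouse. The part of such carry-over in the histone values was not tested. The 95% Wilson intervals were at most 0.00474 points wide for the first share and 6.07e-04 points for the second.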

How the data were processed

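The authors deposited counts of reads per gene and mouse with gene lengths and GRCm39 coordinates. According to the submitters' processing notes, reads were checked with FastQC 0.11.9, trimmed with Trimmomatic 0.39, aligned with HISAT2 2.2.1, sorted with SAMtools 1.12 and counted with featureCounts 2.0.1, and DESeq2 1.34.0 was run in R 4.1.2. The 4 deposited tables of comparisons and pathways, which hold fold changes, p-values and 12 columns of values per mouse, were not tested or printed, and the authors' group means served only to choose the 9 mice of the alternative named below. Replicates of a group were distinct libraries, with a chi-square per degree of freedom between them of 18.8 to 154.

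Counts of 12 mice were fitted together in edgeR 4.0.16 (R 4.3.3) by filterByExpr, TMM scaling and the quasi-likelihood F-test, two-sided. P-values were adjusted by Benjamini-Hochberg over all 17431 genes, and a gene was called at an adjusted p under 0.05. TMM factors ran from 0.720 to 1.35, and 3 counts correspond to 0.0683 to 0.166 CPM. Intervals are 95% Wilson intervals, and they and the limit of 3 counts cover counting error only. The test was also tested on simulated data of 16948 genes for Model against Ctrl. It called 105 of the 194 changed genes tested and 6 unchanged ones.

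Members and lists were chosen with earlier results of these data known. Members named with values in every mouse were the 10 with the highest level per kb, those called in either comparison (at most 14) and each tested H1 gene, and the other 4 tested members were added after their values were seen. From each list, up to 4 genes with the largest log2 fold change among those called in a comparison were named, with Slbp, Npat, Mki67, Top2a and the main variant genes. The lists were core variants, processing factors, chaperones, division genes and cell type markers.

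Alternatives were DESeq2 1.42.0, library-size and upper-quartile scaling, no filter, at least 10 counts in every mouse, only the 8 mice of a comparison, only the 9 mice that match the authors' group means (without Ctrl 2, Model 1 and YHY 4), a replicate block, a fold limit of 1.2 with unadjusted p, and leaving out each mouse. Stem-loops were sought in GENCODE M21 on GRCm38 and motifs in RefSeq promoters on GRCm38.p6. Figures were drawn with matplotlib 3.10.9 in Python 3.11.15, and scipy 1.17.1, pandas 2.3.3, numpy 2.4.6, limma 3.58.1 and the R package data.table (1.17.8) were also used.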

Additional observations from a re-analysis of the deposited data

Results flagged for a closer look

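Mice that stood apart from the other 3 of their group were sought in 177 groups of 4 values, and 8 were found, where chance gives about 1 in 20, or 8.85. Mitochondrial genes took 22.7% of the counts of Ctrl 2, against 18.4% to 18.6% in the other Ctrl mice, and 64.6% of those of YHY 2, against 53.8% to 54.6%. The H3.3 gene H3f3a stood at 171 CPM in Model 1, while Model 2, Model 3 and Model 4 had 122 to 130 CPM. Endothelial markers summed to 159 CPM in Ctrl 2, while Ctrl 1, Ctrl 3 and Ctrl 4 had 220 to 222 CPM. Testis markers summed to 0.305 CPM in YHY 1, while YHY 2, YHY 3 and YHY 4 had 0.0744 to 0.111 CPM. H2bc6 stood at 5.80 CPM in YHY 1, while YHY 2, YHY 3 and YHY 4 had 1.59 to 2.20 CPM. H4c11 stood at 1.49 CPM in YHY 1, where the rest of the group had 0 to 0.155 CPM, and at 0.183 CPM in Model 3, where the rest had 0 CPM.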

How the results depend on the processing

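H2bc4, H4c9, H4c3, H3c15 and H1f10 were called in Model against Ctrl under each alternative that tested them. Of 667 values of tested members and named genes under alternatives in that comparison, 619 kept their direction and side of the threshold, 32 lost the call, 13 gained one (11 of them for H2bc6) and 3 changed sign. In YHY against Model, 524 of 583 kept both, 39 lost the call, 6 gained one and 14 changed sign. The cause was not tested except where fewer genes were tested.

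Members called in Model against Ctrl numbered 6, with 4 lower, when at least 10 counts were required in every mouse, which tested 9 members. Beside them, 3088 of 13623 genes were higher and 2907 lower. With library-size scaling 1 member was higher and 10 were lower, beside 8.87% and 32.5% of all genes. Leaving out a mouse gave 6 to 11 called, 2 to 2 higher and 4 to 9 lower. The 4 lower without Model 2 stood beside 2596 of 18052 genes, and the 9 without YHY 1 beside 3381 of 17973. In YHY against Model, 1 was called with DESeq2, with at least 10 counts (beside 1117 higher and 1328 lower of 13623 genes) and with no filter (beside 1068 and 1387 of 30103). By the fold limit 4 were called, beside 13.9% higher and 14.7% lower of all genes. Leaving out a mouse gave 0 to 2 called, 0 to 1 higher and 0 to 2 lower. The 2 lower came without YHY 1, beside 1005 of 17973 genes. Mice with the same number were not paired, with correlations of their deviations from −0.173 to 0.125 over 4 pairs for each pair of groups. With the replicate block, 2 members were higher and 8 lower in Model, beside 3212 and 3077 of 17431 genes. H2bc9 lost its call in Model there (adjusted p = 0.0791) and H2bc6 gained one. In YHY the block called 0 members, beside 793 genes higher and 1127 lower.

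For YHY against Model, the log2 fold change with the 9 mice was 0.058 for H2bc4 and 0.14 for H1f3. H1f10 had −0.0073 with no filter and −0.059 with the block. Leaving out a mouse gave −0.52 to 0.027 for H4c9, −0.31 to 0.22 for H1f10, −0.12 to 1.64 for H1f4, −0.41 to 0.021 for H1f3, −0.066 to 0.81 for H2ac6 and −0.044 to 1.02 for H2bc6 in YHY, and −0.53 to 0.12 for H2bc27 in Model against Ctrl, where H4c16 had −0.11 with library-size scaling.

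Class totals in Model against Ctrl with library-size scaling were 0.035 for H1 and −1.58 for H4. Across all genes, 3412 were higher and 3219 lower in Model with TMM, 1547 and 5667 with library-size scaling, and upper-quartile scaling moved their median to 0.14. With library-size scaling, 6 core variants were called in Model and 0 in YHY, 2 processing genes and 1 chaperone in YHY. No filter gave 2 processing genes in YHY, and DESeq2 gave 4 chaperones. Division genes called in Model were 14 with DESeq2 (1 lower), 17 with the 8 mice (2 lower) and 14 with the 9 mice (3 lower), and in YHY 4 with the 8 mice and 4 with the 9 (1 higher). Leaving out a mouse gave in YHY 2 to 4 processing genes, 1 to 3 chaperones and 3 to 9 division genes.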
